A study of Mus musculus with 22 samples.

Results

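The genes of the eicosanoid pathway considered here were the 10 genes Pla2g4a, Ptgs1, Ptgs2, Ptges, Hpgds, Tbxas1, Alox5, Alox5ap, Ptger2 and Ptger4. They were read with every probe whose RefSeq accession mapped to their symbols, which gave 11 probes, 2 of them for Ptges and 1 for each other gene. The 10 genes were members of a set of 22347 genes tested, and the 11 probes belonged to 28054 probes tested. All 11 probes were well above background on each of the 22 arrays, so that no gene was lost to the filter on dim probes.

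The RNA came from bone marrow-derived macrophages (BMDM) of C57BL/6 mice labelled as male and 10 to 14 weeks old. Bone marrow had been cultured for 9 days with 10 ng/ml of the macrophage growth factor M-CSF, which was withdrawn before treatment. The mice were wild type (wt), lacked the kinase MK2 (MK2-/-) or lacked MK2 and the related kinase MK3 (MK2/3-/-). The cells received 100 ng/ml lipopolysaccharide (LPS), a part of the bacterial outer membrane sensed by Toll-like receptor 4, or medium alone, for 360 min. The groups held 4 arrays of wt BMDM in medium, 3 of wt BMDM with LPS, 4 and 4 of MK2-/- BMDM, and 3 and 4 of MK2/3-/- BMDM in the same order. No deletion restricted to a cell type is named, and no group lacked MK3 alone.

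Eicosanoids are short-lived lipid mediators made from arachidonic acid. Cytosolic phospholipase A2 (Pla2g4a) frees the fatty acid from membranes, the cyclooxygenases (Ptgs1 and Ptgs2) convert it to prostaglandin H2, and terminal synthases turn that into prostaglandin E2 (Ptges), prostaglandin D2 (Hpgds) or thromboxane A2 (Tbxas1). On the other branch, 5-lipoxygenase (Alox5) with its membrane partner FLAP (Alox5ap) starts the synthesis of leukotrienes. Prostaglandin E2 acts on macrophages through the receptors EP2 (Ptger2) and EP4 (Ptger4), which both raise cyclic AMP, and inflammatory stimuli are known to induce Ptgs2 and Ptges in these cells.

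The promoter windows of 5 genes are shown because these genes rose with LPS or differed between genotypes. Each runs from 250 bases before to 50 bases after the start of the RefSeq transcript on the assembly GRCm38.p6, written 5′ to 3′ along the gene's strand. They lie at chr1:149961241-149961540 (minus strand) for Pla2g4a, the only one of its 2 windows that held a motif other than TATA, at chr1:150099781-150100080 (plus) for Ptgs2 and at chr2:30903248-30903547 (minus) for Ptges. Those of Ptger2 and Ptger4 lie at chr14:44987861-44988160 (plus) and chr15:5244138-5244437 (minus). Capitals mark matches, on either strand, to the letters of a motif, and overlapping matches run together.
Pla2g4a: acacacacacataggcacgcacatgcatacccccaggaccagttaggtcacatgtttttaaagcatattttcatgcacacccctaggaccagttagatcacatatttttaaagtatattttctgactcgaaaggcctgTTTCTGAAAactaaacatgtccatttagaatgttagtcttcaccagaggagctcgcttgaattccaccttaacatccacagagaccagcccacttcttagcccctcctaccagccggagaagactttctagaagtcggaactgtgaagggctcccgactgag
Ptgs2: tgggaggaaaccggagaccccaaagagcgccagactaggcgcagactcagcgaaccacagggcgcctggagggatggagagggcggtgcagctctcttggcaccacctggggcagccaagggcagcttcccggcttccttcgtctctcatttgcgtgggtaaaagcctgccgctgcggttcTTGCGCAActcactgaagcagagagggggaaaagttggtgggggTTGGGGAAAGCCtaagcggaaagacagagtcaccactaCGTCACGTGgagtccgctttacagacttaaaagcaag
Ptges: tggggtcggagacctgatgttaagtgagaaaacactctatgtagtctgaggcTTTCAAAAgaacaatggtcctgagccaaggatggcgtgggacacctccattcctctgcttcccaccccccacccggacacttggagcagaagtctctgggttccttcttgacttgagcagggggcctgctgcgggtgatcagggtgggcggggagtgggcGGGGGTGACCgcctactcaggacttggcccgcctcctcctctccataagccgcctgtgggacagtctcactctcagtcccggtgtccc
Ptger2: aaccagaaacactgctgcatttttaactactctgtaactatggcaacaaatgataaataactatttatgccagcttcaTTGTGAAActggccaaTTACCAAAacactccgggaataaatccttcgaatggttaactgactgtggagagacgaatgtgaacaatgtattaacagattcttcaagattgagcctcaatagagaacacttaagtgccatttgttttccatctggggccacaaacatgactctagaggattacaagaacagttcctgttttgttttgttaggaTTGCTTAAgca
Ptger4: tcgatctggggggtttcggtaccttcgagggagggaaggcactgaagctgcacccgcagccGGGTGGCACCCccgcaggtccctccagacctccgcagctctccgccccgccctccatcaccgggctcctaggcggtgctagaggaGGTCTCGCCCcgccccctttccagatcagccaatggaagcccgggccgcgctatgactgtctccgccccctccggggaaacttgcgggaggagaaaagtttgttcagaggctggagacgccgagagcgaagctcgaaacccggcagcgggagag

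The motifs were searched on both strands. The C/EBP letters TTNNGNAA were held by 40.7% of all 32851 windows of the table, and the NF-kB motif, 3 G and 2 C with 5 free bases between, by 50.8%. The full cyclic AMP response element TGACGTCA was in 1.79% of windows and its first letters, TGACG, in 20.8%. The E-box CACGTG was in 7.15% and the AP-1 letters TGANTCA were in 7.81% of windows. The PU.1 core GAGGAAG and the TATA letters TATAAA were in 13.6% each. A window was found for 9 of the 10 genes, 10 windows in all, of which 5 held the C/EBP letters and 5 the NF-kB letters. In Ptgs2, a C/EBP match began 69 bases before the start and read the same on both strands, and another at 25 bases overlapped an NF-kB match at 23 bases. The E-box of Ptgs2, at base 17 after the start, overlapped the letters TGACG read on the other strand. Ptges held a C/EBP match at 198 and an NF-kB match at 38 bases before the start, Pla2g4a a pair of overlapping C/EBP matches at 112 and 111, Ptger2 3 C/EBP matches, and Ptger4 NF-kB letters at 189, 188 and 104 bases. These matches are letters only, and binding was not measured.

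The arrays were checked against their labels first. The Mapkapk2 transcript, which encodes MK2, differed from LPS-treated wt BMDM by log2 -3.28 in the single and -3.87 in the double knockout (limma, adjusted p = 2.67e-05 and 2.37e-06). Mapkapk3, which encodes MK3, was lower in MK2/3-/- BMDM (-4.11, adjusted p = 1.52e-08) and not in MK2-/- BMDM (0.23, adjusted p = 0.547). Of 7 macrophage markers with a probe, 6 were above background on all arrays, with a summed log2 signal of 18.75 to 19.53. Replicate 3 of both MK2-/- groups went against the label male, with Ddx3y at 1.99 and 2.01 against 10.09 to 11.26 on the other MK2-/- arrays. Xist was highest on these arrays (7.66 and 7.78). Of the differences followed for the 10 genes, those that rest on these arrays are also given without them where the call changed. The 3 genotypes were hybridised on 3 slides, 1 for each, so that slide and genotype cannot be told apart in any comparison between genotypes. Within a genotype, LPS and medium were on the same slide. The median processed signal of an array lay between 32.7 and 108, and 61.1% to 78% of probes were well above background.

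Other cell types of bone marrow also make eicosanoids, so their markers were read on the same arrays. Fcer1a and Ms4a2, genes of the high-affinity IgE receptor of mast cells and basophils, were above background on none of the 22 arrays. Of the other 6 of the 8 mast cell and basophil markers, Tpsb2 was so on all 22, Gata2 on 19, Kit on 18, Mcpt8 on 13, Cpa3 on 10 and Cma1 on 7 arrays. The summed signal of 6 platelet and megakaryocyte markers was 15.03 to 15.51 on wt medium arrays, 13.66 to 14.75 on MK2-/- and 14.33 to 14.63 on MK2/3-/- medium arrays. It rested mainly on Pf4 (means 15.23, 14.19 and 14.52), the only marker of the 6 above background on all arrays. Ppbp, Gp6, Itga2b, Gp1ba and Gp9 were so on 20, 14, 6, 5 and 4 arrays. In medium the means of Itga2b and Gp1ba were higher, and those of Ppbp, Gp6 and Gp9 lower, in MK2-/- than in wt BMDM. The summed signal of 6 fibroblast and stromal markers varied most within groups, from 11.6 to 16.67 on wt medium arrays and from 9.48 to 15.54 on MK2/3-/- medium arrays. That of 8 neutrophil markers lay between 11.67 and 14.05, that of 6 dendritic cell markers between 15.68 and 17.22 and that of 5 T cell markers between 11.82 and 13.54. That of 4 B cell markers was lower on all LPS arrays (7.54 to 8.54) than on the medium arrays (8.99 to 10.52). The part of other cells in the results was not tested, and in such bulk samples fewer cells of a type and less RNA per cell cannot be told apart.

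**Figure D1:**
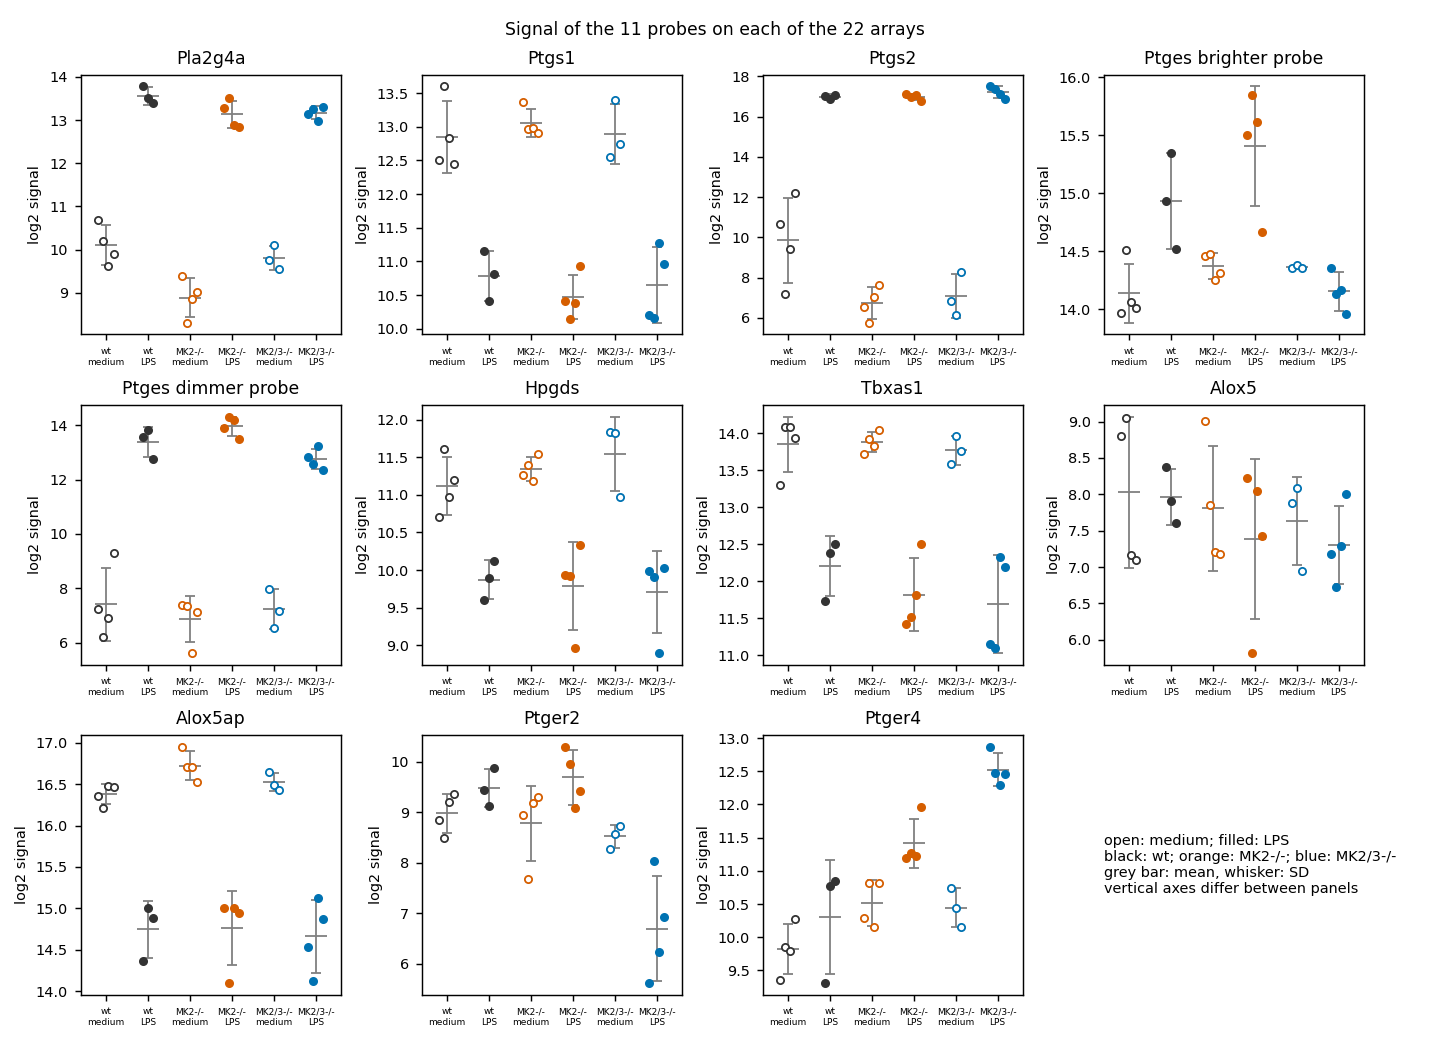
Log2 signal of each of the 11 probes (vertical axes, which differ between panels) on each of the 22 arrays, by genotype and treatment, with the group mean and SD in grey. Pla2g4a, Ptgs2 and the dimmer Ptges probe were higher on every LPS array than on any medium array, while Ptgs1, Tbxas1 and Alox5ap were lower on every LPS array, and LPS-treated MK2/3-/- BMDM had the lowest mean of Ptger2 and the highest of Ptger4.

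With LPS some genes of the pathway rose and others fell in wt BMDM. The phospholipase Pla2g4a, the inducible cyclooxygenase Ptgs2 and the prostaglandin E synthase Ptges rose, while the constitutive cyclooxygenase Ptgs1, the synthases Hpgds and Tbxas1 and the FLAP gene Alox5ap fell. Of the 10 genes, 3 rose and 4 fell at an adjusted p below 0.05, against 18.6% and 23.5% of all genes tested. In MK2-/- BMDM 4 rose and 4 fell, against 17.6% and 27.2% of all genes, and in MK2/3-/- BMDM 3 rose and 5 fell, against 20.3% and 28%. Ptges was counted by its brighter probe, which was not called in MK2/3-/- BMDM, while its dimmer probe rose in each genotype. The median log2 difference of the 10 genes was 0.21, 0.23 and -1.08 in wt, MK2-/- and MK2/3-/- BMDM, beside -0.04, -0.01 and 0.02 over all genes. Scaling by the upper quartile of each array in place of quantile normalisation moved the medians of all genes to 0.3, 0.28 and 0.29. It also moved the share of higher genes among those called from 44.2%, 39.3% and 42.1% to 60.5%, 53.6% and 54.1%, so that the directions given here are relative to the median gene.

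Pla2g4a (NM_008869), the enzyme that supplies arachidonic acid, had log2 signals of 10.69, 10.21, 9.62 and 9.89 in wt BMDM in medium and of 13.78, 13.5 and 13.39 after LPS. In MK2-/- BMDM the medium arrays gave 9.38, 8.31, 8.85 and 9.02, and the LPS arrays 13.28, 13.51, 12.89 and 12.85. In MK2/3-/- BMDM the medium arrays gave 9.77, 10.11 and 9.55, and the LPS arrays 13.14, 13.25, 12.97 and 13.31. No LPS array of a genotype reached down to its medium arrays, and the MK2-/- medium arrays were the lowest of all. The rise was 11-fold in wt (log2 3.46 ± 0.26 SE, adjusted p = 7.07e-09), 18.9-fold in MK2-/- (4.24 ± 0.24, adjusted p = 9.76e-11) and 10.3-fold in MK2/3-/- BMDM (3.36 ± 0.26, adjusted p = 4.89e-09). By size it was the 354th, 287th and 461st largest rise of 22347 genes.

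Ptgs1 (NM_008969), which encodes the cyclooxygenase present in resting cells, fell with LPS. Its medium arrays lay at 12.5, 13.6, 12.84 and 12.45 in wt, at 13.37, 12.96, 12.98 and 12.91 in MK2-/- and at 12.55, 13.39 and 12.74 in MK2/3-/- BMDM. After LPS the arrays lay at 11.15, 10.41 and 10.81 in wt, 10.42, 10.15, 10.39 and 10.93 in MK2-/-, and 10.2, 10.16, 11.28 and 10.96 in MK2/3-/- BMDM. All LPS arrays were below all medium arrays, while the genotypes overlapped. Its level was 4.16 times lower in wt (log2 -2.06 ± 0.32 SE, adjusted p = 3.71e-05), 5.99 times lower in MK2-/- (-2.58 ± 0.3, adjusted p = 6.05e-07) and 4.74 times lower in MK2/3-/- BMDM (-2.24 ± 0.32, adjusted p = 8.88e-06).

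Ptgs2 (NM_011198), the cyclooxygenase gene known for its induction in inflammation, was among the genes with the largest rise, in 15th place in wt BMDM and in 7th place in each knockout. After LPS the arrays stood close together, at 17.03, 16.86 and 17.08 in wt, at 17.12, 16.97, 17.08 and 16.79 in MK2-/-, and at 17.5, 17.39, 17.13 and 16.86 in MK2/3-/- BMDM. In medium the wt arrays were spread over 10.65, 7.2, 9.4 and 12.19, while those of MK2-/- BMDM lay at 6.53, 5.76, 7.02 and 7.65 and those of MK2/3-/- BMDM at 6.85, 6.15 and 8.3. The genotypes thus overlapped after LPS, and the wt medium arrays were spread far more widely than those of any other group. The fold rise was 140 in wt (log2 7.13 ± 0.76 SE, adjusted p = 4.47e-07), 1220 in MK2-/- (10.25 ± 0.7, adjusted p = 7.75e-10) and 1110 in BMDM of MK2/3-/- mice (10.12 ± 0.76, adjusted p = 2.95e-09). The wt rise depended on single medium arrays, with log2 6.24 without replicate 2 and 7.9 without replicate 4.

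Ptges (NM_022415), the inducible prostaglandin E synthase, was read by 2 probes that disagreed in size and, in MK2/3-/- BMDM, also in sign and call. The dimmer probe lay at 7.23, 6.2, 6.89 and 9.3 in wt medium, 7.39, 7.35, 5.62 and 7.11 in MK2-/- medium, and 7.98, 6.52 and 7.17 in MK2/3-/- medium. After LPS it read 13.57, 13.82 and 12.77 in wt, 13.9, 14.3, 14.18 and 13.51 in MK2-/-, and 12.85, 12.56, 13.24 and 12.37 in MK2/3-/- BMDM. Every LPS array of this probe was above every medium array, with rises of 63.2-fold (log2 5.98 ± 0.57 SE), 138-fold (7.11 ± 0.53) and 46.2-fold (5.53 ± 0.57) and adjusted p = 1.12e-07, 2.21e-09 and 1.58e-07. The brighter probe, which stood for the gene in the count, read 13.97, 14.51, 14.06 and 14.01 in wt medium and 14.93, 15.35 and 14.52 with LPS. It read 14.46, 14.48, 14.25 and 14.31 in MK2-/- medium and 15.5, 15.85, 15.61 and 14.67 with LPS. The double knockout read 14.36, 14.38 and 14.36 in medium and 14.36, 14.13, 14.17 and 13.96 with LPS, so that its highest LPS array lay level with the medium arrays and the others below them. Its differences were 0.8 ± 0.24 SE in wt (1.74-fold, adjusted p = 0.0105), 1.03 ± 0.22 in MK2-/- (2.04-fold, adjusted p = 6.52e-04) and -0.21 ± 0.24 in BMDM lacking both kinases (adjusted p = 0.504). Without wt LPS replicate 2 the wt value was 0.59 (adjusted p = 0.0844). With upper quartile scaling the 3 values were 1.59, 1.86 and 0.68, the last with its sign turned and an adjusted p of 0.0189.

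Hpgds (NM_019455), the hematopoietic prostaglandin D synthase, fell in all 3 genotypes. In medium its arrays read 10.7, 11.61, 10.97 and 11.2 in wt, 11.26, 11.4, 11.18 and 11.54 in MK2-/-, and 11.84, 11.82 and 10.97 in MK2/3-/- BMDM. After LPS they read 9.6, 9.89 and 10.12 in wt, 9.94, 9.92, 8.96 and 10.33 in MK2-/-, and 9.99, 9.91, 8.9 and 10.03 in MK2/3-/- BMDM. All LPS arrays were below all medium arrays, and the genotypes overlapped. The level was 2.38, 2.95 and 3.57 times lower (log2 -1.25 ± 0.33, -1.56 ± 0.3 and -1.84 ± 0.33 SE) with adjusted p = 0.00441, 2.65e-04 and 1.06e-04.

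Tbxas1 (NM_011539), the thromboxane synthase, was a bright transcript in medium, at 13.3, 14.08, 14.09 and 13.94 in wt, 13.72, 13.92, 13.83 and 14.04 in MK2-/-, and 13.58, 13.97 and 13.76 in MK2/3-/- BMDM. With LPS it stood at 11.74, 12.38 and 12.5 in wt, 11.43, 11.52, 11.82 and 12.51 in MK2-/-, and 11.15, 11.1, 12.33 and 12.19 in MK2/3-/- BMDM. The LPS arrays were again all below the medium arrays, with no separation by genotype. The level was 3.13, 4.16 and 4.22 times lower (log2 -1.65 ± 0.32, -2.06 ± 0.29 and -2.08 ± 0.32 SE) with adjusted p = 3.60e-04, 9.84e-06 and 2.13e-05.

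On the leukotriene branch the enzyme and its partner differed. Alox5ap (NM_009663) stood at 16.36, 16.21, 16.48 and 16.46 in wt medium, 16.95, 16.71, 16.7 and 16.53 in MK2-/- medium, and 16.64, 16.49 and 16.43 in MK2/3-/- medium. With LPS it stood at 14.36, 15.01 and 14.88 in wt, 15, 14.1, 15 and 14.95 in MK2-/-, and 14.53, 14.12, 15.13 and 14.87 in MK2/3-/- BMDM. All LPS arrays were lower than all medium arrays, by 3.1, 3.88 and 3.63 times (log2 -1.63 ± 0.24, -1.96 ± 0.23 and -1.86 ± 0.24 SE) with adjusted p = 2.57e-05, 7.08e-07 and 3.41e-06.

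Alox5 (NM_009662), the 5-lipoxygenase, was much more variable. It read 8.8, 9.05, 7.17 and 7.09 in wt medium and 8.37, 7.91 and 7.6 with LPS. It read 9.01, 7.85, 7.2 and 7.18 in MK2-/- medium and 8.23, 5.82, 8.05 and 7.43 with LPS, and 7.88, 8.08 and 6.95 in MK2/3-/- medium and 7.18, 6.73, 7.29 and 8.01 with LPS. All 6 groups overlapped. The differences with LPS were -0.07 ± 0.59, -0.43 ± 0.55 and -0.34 ± 0.59 SE (adjusted p = 0.946, 0.572 and 0.686), and the wt value was 0.03 with upper quartile scaling. The 95% interval in wt BMDM ran from -1.31 to 1.18.

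The receptors of prostaglandin E2 moved apart in the double knockout. Ptger2 (NM_008964) read 8.84, 8.5, 9.21 and 9.37 in wt medium and 9.44, 9.13 and 9.87 with LPS, and 8.94, 7.69, 9.18 and 9.31 in MK2-/- medium and 10.3, 9.96, 9.09 and 9.43 with LPS. The double knockout read 8.27, 8.57 and 8.73 in medium but 5.62, 8.03, 6.23 and 6.92 with LPS, all 4 below the medium arrays. The differences were 0.5 ± 0.47 in wt (adjusted p = 0.42), 0.91 ± 0.43 in MK2-/- (adjusted p = 0.0951) and -1.82 ± 0.47 SE in MK2/3-/- BMDM (3.54 times lower, adjusted p = 0.00297). The MK2-/- value passed the threshold with normexp background correction (0.8, adjusted p = 0.0463) and with array weights (0.91, adjusted p = 0.045).

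Ptger4 (NM_008965) read 9.36, 9.86, 9.8 and 10.27 in wt medium and 9.31, 10.77 and 10.84 with LPS, where 1 array lay below all medium arrays and 2 lay above them. It read 10.29, 10.81, 10.15 and 10.82 in MK2-/- medium and 11.2, 11.27, 11.23 and 11.96 with LPS. In MK2/3-/- BMDM it read 10.74, 10.44 and 10.15 in medium and 12.87, 12.47, 12.29 and 12.46 with LPS, the highest values of any group. The differences were 0.49 ± 0.32 in wt (adjusted p = 0.249), 0.89 ± 0.3 in MK2-/- (1.86-fold, adjusted p = 0.0203) and 2.08 ± 0.32 SE in MK2/3-/- BMDM (4.23-fold, adjusted p = 2.63e-05). The MK2-/- rise missed the threshold without LPS replicate 4 (0.71, adjusted p = 0.0805), medium replicate 1 (0.82, adjusted p = 0.0568), medium replicate 3 (0.77, adjusted p = 0.0663) or both arrays of low Y-linked signal (0.83, adjusted p = 0.0707). With array weights the wt value, 0.73, passed it (adjusted p = 0.0311). The wt value ranged from 0.22 to 0.98 with 1 array left out, and passed it in 1 of these 22 fits.

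**Figure D2:**
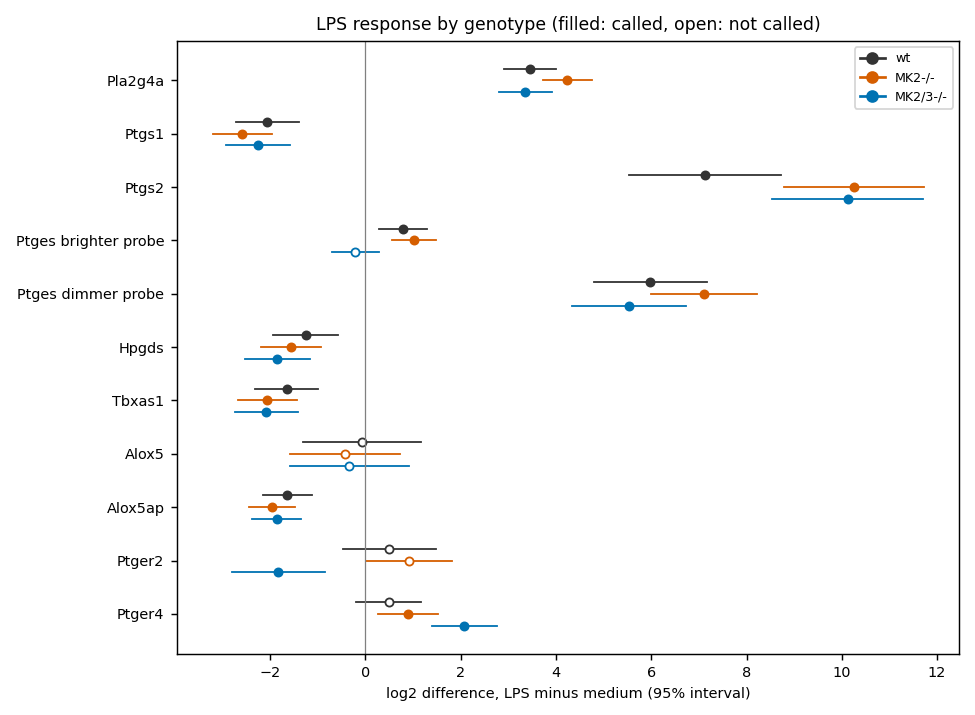
Log2 difference between LPS and medium (horizontal axis) with its 95% interval for each of the 11 probes (vertical axis) in wt, MK2-/- and MK2/3-/- BMDM, where filled points passed an adjusted p of 0.05. Ptgs2 lay between 7.13 and 10.25, Ptgs1, Hpgds, Tbxas1 and Alox5ap lay below 0 in each genotype, and Ptger2 lay at -1.82 in MK2/3-/- and above 0 in wt and MK2-/- BMDM.

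The levels of the 10 genes after LPS were then set against each other between genotypes. In MK2-/- BMDM, 1 of the 10 genes was higher than in wt BMDM and 0 were lower, against 4.54% and 7.1% of all genes. In MK2/3-/- BMDM, 1 was higher and 2 were lower than in wt, against 9.64% and 14% of all genes. Against MK2-/- BMDM, 1 was higher and 2 were lower, against 7.75% and 5.84%. The genes were Ptger4 on the higher side and Ptger2 and Ptges on the lower side. The median log2 differences of the 10 genes were -0.04, -0.28 and -0.08, beside -0.03, -0.02 and -0.07 over all genes. Upper quartile scaling moved the share of higher genes among those called from 39%, 40.8% and 57% to 63.7%, 57.3% and 68.5%, and the median of all genes for MK2/3-/- against wt to 0.15.

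Ptger2 on LPS-treated MK2/3-/- arrays lay below every LPS array of wt and of MK2-/- BMDM. The level was 6.88 times lower than in wt (log2 -2.78 ± 0.47 SE, adjusted p = 5.17e-04) and 7.97 times lower than in MK2-/- BMDM (-2.99 ± 0.43, adjusted p = 1.63e-04). The difference between MK2-/- and wt was 0.21 (95% interval -0.76 to 1.19, adjusted p = 0.797). Replicate 2 of the MK2/3-/- LPS arrays, at 8.03, was the nearest to the other genotypes.

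Ptger4 formed a series after LPS in which wt was lowest, MK2-/- intermediate and MK2/3-/- highest, with no overlap between groups. Loss of MK2 went with a 2.15-fold higher level (log2 1.11 ± 0.32 SE, adjusted p = 0.0357) and loss of both kinases with a 4.64-fold higher level (2.21 ± 0.32, adjusted p = 1.86e-04) than in wt. The double knockout exceeded the single one 2.16-fold (1.11 ± 0.3, adjusted p = 0.0198). In medium Ptger4 was also higher than in wt, by 0.7 in MK2-/- (95% interval 0.07 to 1.33, adjusted p = 0.15) and 0.62 in MK2/3-/- BMDM (-0.06 to 1.3, adjusted p = 0.342), neither of them called. The step from wt to MK2-/- rested on few arrays. Without wt LPS replicate 1, the low array at 9.31, it was 0.61 (adjusted p = 0.196), and without MK2-/- LPS replicates 1, 2 or 4 in turn it was 1.18, 1.16 or 0.92 (adjusted p = 0.0535, 0.0591 and 0.0898). It also missed the threshold with upper quartile scaling (0.97, adjusted p = 0.0553), array weights (0.72, adjusted p = 0.0561) and a fit of only these groups (1.11, adjusted p = 0.13). The step from MK2-/- to MK2/3-/- was 1.04, 1.06 and 0.99 without MK2-/- LPS replicate 1, MK2-/- LPS replicate 2 or MK2/3-/- LPS replicate 1 (adjusted p = 0.0629, 0.0553 and 0.0512).

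Ptges after LPS was lower in MK2/3-/- BMDM by its brighter probe, 1.71 times against wt (log2 -0.78 ± 0.24 SE, adjusted p = 0.0234) and 2.38 times against MK2-/- BMDM (-1.25 ± 0.22, adjusted p = 8.73e-04). All 4 MK2/3-/- arrays were below the arrays of the other genotypes. The dimmer probe gave -0.64 against wt (adjusted p = 0.442, arrays overlapping) and -1.22 against MK2-/- BMDM (adjusted p = 0.135, all MK2/3-/- arrays lower). The difference from wt by the brighter probe was -0.78 without wt LPS replicate 1 (adjusted p = 0.0626), -0.57 without wt LPS replicate 2 (adjusted p = 0.125) and -0.78 with only these groups fitted (adjusted p = 0.0988).

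Ptgs2 and Pla2g4a showed no called difference after LPS. The Ptgs2 difference was 0.00 between MK2-/- and wt (95% interval -1.59 to 1.58, adjusted p = 0.998) and 0.23 between MK2/3-/- and wt (-1.36 to 1.82, adjusted p = 0.858). These intervals rest on 1 spread shared by all 6 groups. The SD of Ptgs2 was 2.11 in wt medium, but 0.11, 0.15 and 0.29 after LPS in wt, MK2-/- and MK2/3-/- BMDM. For Pla2g4a it was -0.43 for MK2-/- and -0.39 for MK2/3-/- BMDM, with adjusted p = 0.288 and 0.292, the latter with all arrays below wt. With upper quartile scaling the MK2/3-/- value for Pla2g4a was -0.71 and was called (adjusted p = 0.0449). The other 5 genes, Ptgs1, Hpgds, Tbxas1, Alox5 and Alox5ap, differed by -0.66 to 0.18 in the 3 comparisons, with overlapping arrays in each.

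**Figure D3:**
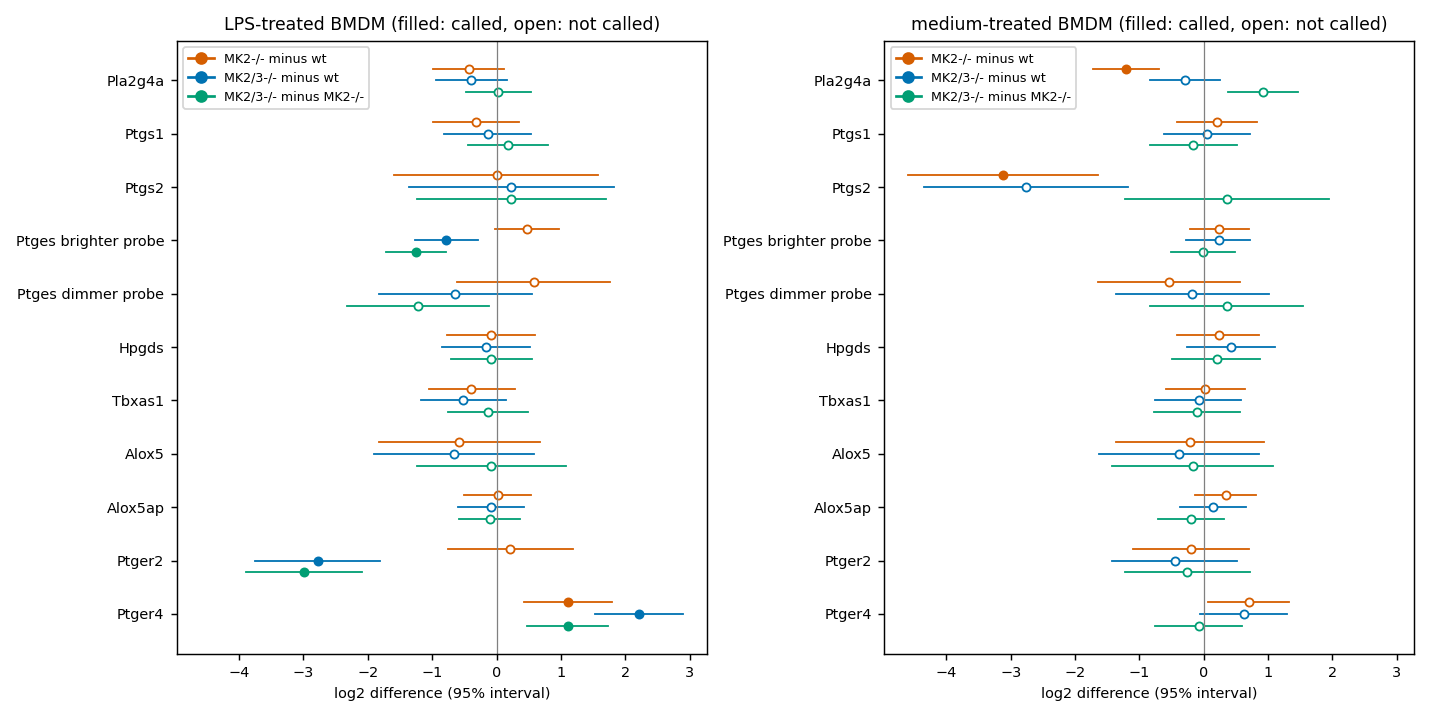
Log2 difference between genotypes (horizontal axes) with its 95% interval for each of the 11 probes, in LPS-treated BMDM on the left and in medium on the right, where filled points passed an adjusted p of 0.05. After LPS the filled points were Ptger2, Ptger4 and the brighter Ptges probe, and in medium they were Ptgs2 and Pla2g4a in MK2-/- against wt BMDM.

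In medium the called genotype differences of the 10 genes concerned other genes. They were fewer than after LPS in the comparisons of MK2/3-/- BMDM, but not in MK2-/- against wt. In MK2-/- BMDM 0 of the 10 genes were higher and 2 were lower than in wt, against 5.75% and 3.13% of all genes tested. In MK2/3-/- BMDM 0 were higher and 0 lower than in wt (limma, against 1.5% and 0.524%), and 0 were higher and 0 lower than in MK2-/- BMDM (against 2% and 0.832%). Upper quartile scaling moved the share of higher genes among those called from 64.7%, 74.1% and 70.6% to 84%, 90.1% and 89.5%. The calls over all genes between MK2/3-/- and wt BMDM, 452, fell to 20 without MK2/3-/- medium replicate 1 and to 82 without wt medium replicate 1, and were 4278 with upper quartile scaling. Unadjusted p-values below 0.05 were counted for 3778 and 3355 of all genes in the latter comparisons.

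Pla2g4a in medium was 2.32 times lower in MK2-/- BMDM than in those of wt mice (log2 -1.21 ± 0.24 SE, adjusted p = 0.00713), with all 4 arrays below the wt arrays. In MK2/3-/- BMDM it overlapped wt (-0.29, adjusted p = 0.617), and the MK2/3-/- arrays all lay above those of MK2-/- BMDM (0.92, adjusted p = 0.0683). Ptgs2 was 8.7 times lower in MK2-/- than in wt BMDM (-3.12 ± 0.7 SE, adjusted p = 0.0124) although wt replicate 2, at 7.2, lay within the MK2-/- range. That SE rests on 1 spread shared by all 6 groups, while the SD of Ptgs2 was 2.11 in wt medium. The call was lost when only the groups compared were fitted. In MK2/3-/- BMDM the difference from wt was -2.76 ± 0.76 (adjusted p = 0.0646), and between both knockouts it was 0.36 (adjusted p = 0.896). Without wt medium replicates 1, 2, 3 or 4 in turn, the MK2-/- difference was -2.86, -4.01, -3.27 or -2.35 (adjusted p = 0.0455, 0.00105, 0.0233 and 0.0354). The MK2/3-/- difference from wt was called without wt medium replicate 2 (-3.65, adjusted p = 0.00726) and with upper quartile scaling (-2.65, adjusted p = 0.0238).

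Cytokine genes that LPS induces were read on the same medium arrays. On wt medium replicates 1 to 4, Il6 read 8.52, 6.41, 10.02 and 13.36, and Il1b read 9.71, 10.08, 10.96 and 14.38. Replicate 4 had the highest Ptgs2, Il6 and Il1b of the 11 medium arrays. For Il6, wt replicates 1, 3 and 4, which were also high in Ptgs2, lay above the 7 knockout medium arrays (4.88 to 6.55). For Il1b the knockout medium arrays reached 11.6, above 3 of the 4 wt arrays, and replicate 1, the second highest in Ptgs2, had the lowest Il1b of the wt arrays. Tnf overlapped in medium between the genotypes, at 9.55 to 10.6 in wt, 8.66 to 10.72 in MK2-/- and 9.76 to 10.47 in MK2/3-/- BMDM. What set these arrays apart was not tested.

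**Figure D4:**
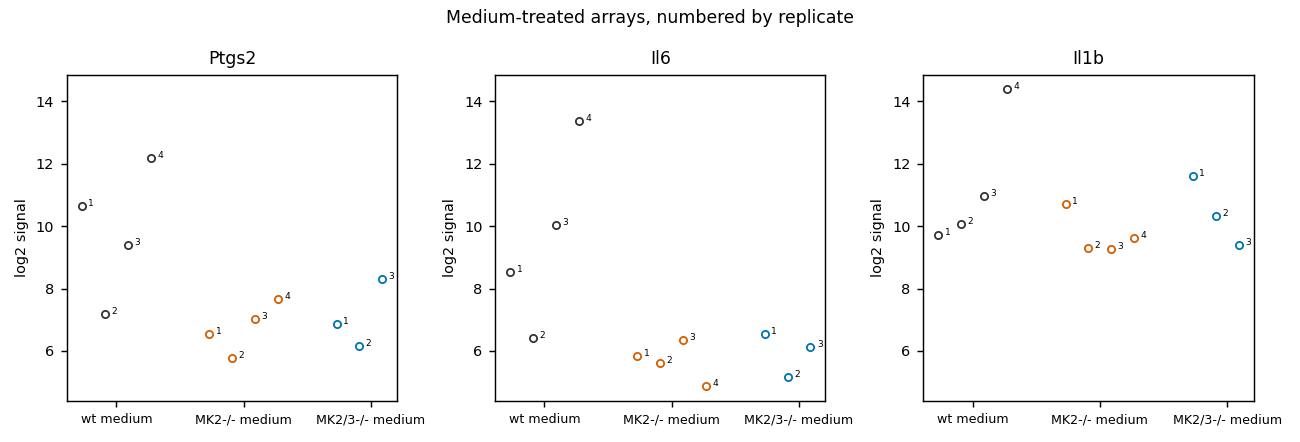
Log2 signal (vertical axes, on 1 scale) of Ptgs2, Il6 and Il1b on each of the 11 medium arrays, numbered by replicate and grouped by genotype. Wt replicate 4 was highest for all 3 genes, at 12.19, 13.36 and 14.38.

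Whether the LPS response itself differed between genotypes was tested by interaction, in which an additive effect of the slide cancels. Of the 10 genes 0 passed in each of the 3 interactions, against 0%, 0.689% and 0.0671% of all genes. Over all genes the unadjusted limma p was below 0.05 for 1684 genes (MK2-/- against wt), 2543 (MK2/3-/- against wt) and 1923 (MK2/3-/- against MK2-/-), and the calls ranged from 0 to 79, 14 to 1024 and 8 to 118 over the other settings and from 0 to 4, 9 to 577 and 1 to 41 with 1 array left out. The difference of the Ptger2 response was -2.33 ± 0.66 SE between MK2/3-/- and wt (adjusted p = 0.102) and -2.74 ± 0.63 between MK2/3-/- and MK2-/- BMDM (adjusted p = 0.152). It was called with array weights (-2.24, adjusted p = 0.0393, and -2.65, adjusted p = 0.0467) and without MK2/3-/- LPS replicate 2 (-2.77, adjusted p = 0.043, and -3.18, adjusted p = 0.047).

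The other responses were not called either. For Ptger4 the difference of the response was 1.59 ± 0.46 SE between MK2/3-/- and wt (adjusted p = 0.11) and 1.19 ± 0.44 between MK2/3-/- and MK2-/- BMDM (adjusted p = 0.447). Between MK2-/- and wt it was 0.41 ± 0.44 (adjusted p = 0.863). For Ptgs2 it was 3.12 ± 1.03 in MK2-/- and 2.99 ± 1.07 in MK2/3-/- against wt BMDM (adjusted p = 0.456 and 0.231), a gene whose arrays overlapped after LPS. For Ptges in MK2/3-/- BMDM by its brighter probe it was -1.01 against wt (adjusted p = 0.182) and -1.24 against MK2-/- BMDM (adjusted p = 0.227). By its dimmer probe it was -0.45 and -1.58 (adjusted p = 0.919 and 0.584). The value of -1.24 by the brighter probe ranged from -1.48 to -1.09 with 1 array left out, and was called in 1 of these 22 fits. For Pla2g4a it was 0.79 in MK2-/- against wt (adjusted p = 0.651). The changes of these genes with LPS were therefore not shown to differ between genotypes.

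Of 56 other genes of the same pathways, 51 were measured above background on enough arrays to be tested. With LPS, 11 rose and 10 fell in wt, 10 rose and 16 fell in MK2-/-, and 9 rose and 14 fell in MK2/3-/- BMDM. These counts, of 51, lay near the shares over all genes, 18.6% and 23.5%, 17.6% and 27.2%, and 20.3% and 28%. Of 13 other phospholipases tested, 1 rose and 2 fell in wt BMDM, of 8 other prostanoid synthases and enzymes 3 rose and 2 fell, and of 10 leukotriene enzymes 1 rose and 3 fell. The 3 largest rises among those called in wt BMDM were those of Fpr2, a receptor of lipoxin A4 (103-fold, log2 6.68 ± 0.63 SE, adjusted p = 9.28e-08), of Abcc4, which exports prostaglandins (2.93-fold, 1.55 ± 0.22, adjusted p = 1.55e-05), and of the leukotriene receptor Cysltr2 (2.82-fold, 1.5 ± 0.29, adjusted p = 3.70e-04). The 3 largest falls were those of the lysosomal phospholipase Pla2g15 (11.6 times lower, -3.54 ± 0.35, adjusted p = 1.93e-07), of the EP3 receptor Ptger3 and of Pla2g6 (3.5 times lower, -1.81 ± 0.3, adjusted p = 7.77e-05). Ptger3 was 4.29 times lower with LPS (-2.1 ± 0.57, adjusted p = 0.00576), and its difference ranged from -2.45 to -1.58 with 1 array left out. Of its arrays, 3 of 4 were well above background in medium and 0 of 3 with LPS. Hpgd, which degrades prostaglandin E2 and was chosen after its values were seen, fell in both knockouts (log2 -4.45 and -4.48, adjusted p = 0.0155 for MK2-/- and 0.0219 for MK2/3-/- BMDM). In wt BMDM the Hpgd difference was -3.83 ± 1.54 SE (adjusted p = 0.0538). The SD of Hpgd was 3.4 in medium and 3.23 with LPS in MK2-/- BMDM. It was 0.31 and 1.19 in MK2/3-/- and 0.4 and 1.58 in wt BMDM. Hpgd was not followed in the fits that left arrays out.

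**Figure D5:**
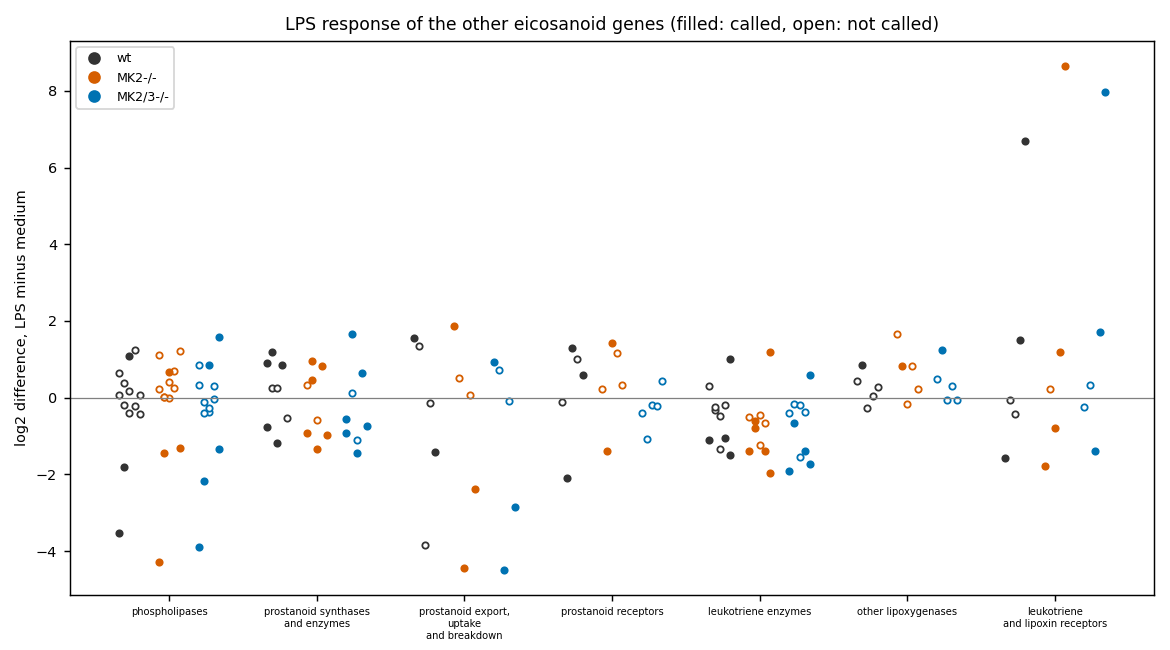
Log2 difference between LPS and medium (vertical axis) of the 51 other eicosanoid genes tested, by list (horizontal axis) and genotype, where filled points passed an adjusted p of 0.05. The highest points are Fpr2, at 6.68 in wt BMDM, and the lowest filled points are Hpgd in the knockouts and Pla2g15, at -3.54 in wt BMDM.

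After LPS, 1 of these 51 genes was higher and 2 were lower in MK2-/- than in wt BMDM, 4 and 7 in MK2/3-/- than in wt, and 4 and 5 in MK2/3-/- than in MK2-/- BMDM. Over all genes the shares were 4.54% and 7.1%, 9.64% and 14%, and 7.75% and 5.84%, near those of the 51. The total of 3 against wt in MK2-/- BMDM was 1 without wt LPS replicate 1, wt LPS replicate 2 or MK2-/- LPS replicate 4, and the total of 9 between the knockouts was 5 without MK2-/- LPS replicate 1 and 4 without MK2-/- LPS replicate 2. Ptges2, a further prostaglandin E synthase, was 3.15 times lower in MK2/3-/- than in wt (log2 -1.65 ± 0.2 SE, adjusted p = 4.96e-05) and 2.28 times lower than in MK2-/- BMDM (-1.19 ± 0.18, adjusted p = 2.97e-04). It was the single gene of the 51 called in an interaction, since it rose in wt (0.9) and fell in MK2/3-/- BMDM (-0.55), with a difference of -1.45 ± 0.28 (adjusted p = 0.0309). That call was lost in 6 of the 22 fits that left out 1 array, which were those without wt LPS replicate 1, wt medium replicates 1 or 2 or any MK2/3-/- medium array (-1.36 to -1.47, adjusted p = 0.0563 to 0.0775 in medium and 0.0822 for the LPS array). Ltb4r1, the high-affinity receptor of leukotriene B4, in MK2/3-/- BMDM exceeded wt 5.5-fold (2.46 ± 0.46, adjusted p = 0.00116) and MK2-/- BMDM 4.94-fold (2.3 ± 0.43, adjusted p = 0.00139). Its mean log2 signal fell with LPS from 8 to 6.41 in wt and from 8.35 to 6.57 in MK2-/- BMDM, and stood at 9.11 and 8.87 in MK2/3-/- BMDM. Ptgr2, which reduces a breakdown product of prostaglandins, was below wt both in the single knockout (-1.14 ± 0.29, adjusted p = 0.0194) and in the double knockout (-1.83 ± 0.29, adjusted p = 3.63e-04). The former call was lost without wt LPS replicates 1 or 2 or MK2-/- LPS replicates 2 or 4 (-0.97 to -1.12, adjusted p = 0.0518 to 0.0711).

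The remaining genes called against wt after LPS were Pla2g16 (-0.84) and Alox12b (0.74) in MK2-/- BMDM, and in MK2/3-/- BMDM Pla2g6 (-0.98), Pla2g12a (-1.58), Fam213b (-1.03), Abcc1 (-0.51), Akr1c18 (1.02) and Alox12b (1.02). In medium the Alox12b mean was 7.93 in wt, 8.68 in MK2-/- and 8.55 in MK2/3-/- BMDM. That of Pla2g16 was 10.46 in wt and 9.98 in MK2-/- medium. Medium means in wt and MK2/3-/- BMDM were 8.47 and 7.86 for Pla2g6 and 9.19 and 8.53 for Pla2g12a. They were 12.37 and 11.6 for Fam213b, 12.03 and 11.93 for Abcc1, and 7.47 and 8.02 for Akr1c18. Each of these medium differences ran the same way as after LPS. Of the 22 fits without 1 array, the call was lost in 4 for Pla2g16 and 1 for Alox12b in MK2-/- BMDM, and in MK2/3-/- BMDM in 15 for Fam213b (adjusted p = 0.0475 with all arrays), 5 for Abcc1 and 3 for Pla2g6, whose difference was -0.48 without wt LPS replicate 1. Abcc1 exports leukotriene C4 and Fam213b, also called prostamide synthase, makes prostaglandin F. Alox12e in MK2/3-/- BMDM was 5.28-fold above wt, whose LPS arrays, 0 of 3 well above background, were held at or above the background floor. Its fitted difference was 2.55 ± 0.7 (adjusted p = 0.0132, and 0.1 without wt LPS replicate 1), and 1.77 to 3 with 1 array left out. In medium the Alox12e means were 3.82 in wt and 6.16 in MK2/3-/- BMDM. Ggt5, which converts leukotriene C4, was lower in MK2/3-/- than in wt BMDM (-2.03 ± 0.49, adjusted p = 0.00598). Only 1 of 3 wt arrays and 0 of 4 MK2/3-/- arrays were well above background, so no fold is given for it. In medium the Ggt5 means were 6.17 in wt and 4.37 in MK2/3-/- BMDM. Between MK2/3-/- and MK2-/- BMDM the others were Pla2g4b (0.81), Pla2g16 (0.71), Akr1c18 (0.73), Pla2g6 (-1.31), Abcc4 (-0.8), Abcc1 (-0.6) and the EP1 receptor gene Ptger1 (-1.1). Of the 22 fits without 1 array, these calls were lost in 6 for Pla2g4b, 4 each for Pla2g16, Akr1c18 and Ptger1, 2 for Abcc4, 1 for Abcc1 and 0 for Pla2g6.

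For 6 of the 10 genes, the most similar profiles over the 22 arrays were looked up. The genes whose main probe ran most like that of a member were Ccnd2 (Pearson r = 0.992), Vgf (0.991) and Edn1 (0.99) for Ptgs2, and Naa25 (0.987), Riox2 (0.986) and N4bp1 (0.986) for Pla2g4a. For Hpgds they were AI413582 (0.959), Dtnbp1 (0.958) and Plekhm2 (0.953). For Ptges by its brighter probe they were Atg9a (0.878), Gipr (0.865) and Igsf6 (0.828), by its dimmer probe Socs3, Batf and Sod2 (0.985 each), and for Ptger2 Tspyl3 (0.884), Spryd4 (0.876) and Slc25a33 (0.847). Of these 6 genes Alox5 had the weakest likeness, with Scel (0.684), Klrb1a (0.672) and Asb2 (0.671). The points share the split between LPS and medium arrays, and these values are a description.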

How the data were processed

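RNA of the 22 BMDM samples was labelled with Cy3 and hybridised to Agilent SurePrint G3 mouse arrays (1 colour). The authors deposited, per spot, background-corrected and median intensities from Feature Extraction 11.0.1.1 (file header), and a table of log2 values, quantile normalised and centred on the median in GeneSpring GX. Here log2 processed signals were quantile normalised over 22 arrays without control and outlier spots, and each probe's spots averaged. A probe needed an NCBI accession and a signal well above background on 3 or more arrays, and the brightest stood for its gene. Contrasts of 6 groups were fitted with limma 3.58.1 in R 4.3.3 (with data.table, version 1.17.8) over all arrays, with Benjamini-Hochberg adjustment over 22347 genes and a threshold of 0.05, after a check on simulated data. Figures and promoter matches used Python 3.11.15, numpy 2.4.6 and matplotlib 3.10.9.

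Named are all 10 members, Mapkapk2 and Mapkapk3, other listed pathway genes called between genotypes after LPS or in an interaction, the 3 largest rises and falls of those in wt, and the 3 genes most like a member. For Alox12e, well above background on no wt LPS array, the fold took each of these arrays at no less than its lowest signal well above background. That fold leaves out the spread between arrays. The members and lists were chosen with earlier results of these data known. Alternatives were other normalisations and background correction (normexp with offset 50 on median signals, since these are the raw signals the files hold), the authors' table, no filter, the methods' probe choice, array weights, fewer groups, the methods' t-test, replicate blocks and each array left out, plus both MK2-/- arrays of low Y-linked signal, chosen after seeing the data. The sources do not say that each numbered replicate came from its own animal, so p-values measure the spread between these samples, and their number limits the precision.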

Additional observations from a re-analysis of the deposited data

Results flagged for a closer look

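Of 44 groups of 4 arrays of the 11 probes, 6 held an array whose gap to the next, as a share of the range, was above Dixon's 95% critical value, where chance alone flags about 5%. Ptgs1 was at 13.37 on MK2-/- medium replicate 1, against 12.91 to 12.98 on the other arrays of its group. The dimmer Ptges probe was at 5.62 on MK2-/- medium replicate 3, against 7.11 to 7.39, and the brighter one at 14.51 on wt medium replicate 2, against 13.97 to 14.06. Hpgds was at 8.9 on MK2/3-/- LPS replicate 3, against 9.91 to 10.03. Alox5ap was at 14.1 on MK2-/- LPS replicate 2, against 14.95 to 15. Ptger4 was at 11.96 on MK2-/- LPS replicate 4, against 11.2 to 11.27, and its LPS difference in MK2-/- BMDM missed the threshold without that array.

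The LPS response of Ptges2 differed between MK2/3-/- and wt BMDM by -1.45 in the interaction (limma, adjusted p = 0.0309), rising in one and falling in the other genotype. The call was lost in 6 of 22 fits that left out 1 array (adjusted p = 0.0563 to 0.0822).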

How the results depend on the processing

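Of 61 differences followed for the 10 genes, 32 were called, and 25 of these kept their direction and call in every setting but the methods' t-test, with 0 reversed. Among the rest the sign turned for Ptges with LPS in MK2/3-/- BMDM (0.68 with upper quartile scaling, 5.53 with the probe of highest LPS induction in wt), for Alox5 with LPS in wt BMDM (0.03 with upper quartile scaling), for Ptgs2 after LPS in MK2-/- against wt (0.00 with normexp, 0.03 with the authors' table, 0.03 with array weights, 0.12 with a replicate block by array letter) and for Pla2g4a after LPS in MK2/3-/- against MK2-/- (-0.04 with array weights, -0.05 without the arrays of low Y-linked signal). With 1 array left out in turn, Alox5 with LPS ranged from -0.38 to 0.28 in wt and from -0.71 to 0.09 in MK2-/- BMDM, Ptgs2 after LPS in MK2-/- against wt from -0.07 to 0.06, Pla2g4a after LPS in MK2/3-/- against MK2-/- from -0.06 to 0.16, and Ptgs2 in medium in MK2/3-/- against MK2-/- from -0.24 to 0.83. Of the 10 genes, the number called after LPS in MK2-/- against wt went from 1 to 0 with upper quartile scaling, with only the groups compared and with the methods' t-test (0 to 1 with 1 array left out). After LPS in MK2/3-/- against wt and against MK2-/- it went from 3 to 0 with that t-test, which took all genes called from 5288 to 62 and from 3036 to 720. In medium it went for MK2-/- against wt from 2 to 1 with only the groups compared, where Ptgs2 was lost, and to 0 with the t-test, for MK2/3-/- against wt from 0 to 1 with upper quartile scaling and with array weights (0 to 1 with 1 array left out), and for MK2/3-/- against MK2-/- from 0 to 1 with array weights (0 to 1). In the interactions of MK2/3-/- against wt and against MK2-/- it went from 0 to 1 with array weights (0 to 1). At an unadjusted p of 0.05, the methods' t-test counted 7, 8 and 8 genes with LPS in wt, MK2-/- and MK2/3-/- BMDM, 0, 4 and 3 after LPS and 4, 0 and 1 in medium, and after adjustment 6, 8 and 7, then 0 in each other comparison. For the other genes followed, calls were lost 60 times with 1 array left out and 49 times in the other settings, and 0 turned their sign. The causes were not tested.

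The replicate block left the number of the 10 genes called as it was in each comparison, by label number or by array letter (7, 8 and 8 with LPS, 1, 3 and 3 after LPS, 2, 0 and 0 in medium, 0 in the interactions). For pairing, each gene's group mean was first subtracted, and what remained was correlated over genes between an LPS and a medium sample. For same-numbered samples this correlation was over 0.1 in 7 of 10 pairs (-0.0634 to 0.405), and 8 of these 10 pairs had equal animal age. By array letter it was also 7 of 10 pairs (-0.0634 to 0.46), and all 10 had equal age. The sources do not say which arrays share an animal. The main fit took no arrays as pairs, so any LPS and medium samples of the same animal were treated there as independent. With 3 or 4 arrays a group, differences as small as those of Alox5 lay within the spread between arrays.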
